A study of Mus musculus with 2 samples.

Results

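The genes that make, store, carry, sense and remove retinoic acid were followed in mouse primary hepatocytes with and without *Drp1*, starting from *Aldh1a2*, a retinoic acid-forming enzyme whose signal was low in the cells without *Drp1*. The members were every probe in both array files that carried 1 of 9 gene names and was no control spot. Of these names, 8 were found among the 37074 gene names on the array, on 12 probes, and the remaining 1 was not analysed here. The names were picked with their values known, *Aldh1a2* for its low ratio and the others as genes of the same pathway, so their ratios describe these arrays and were not tested. Members were thus chosen by the log2 ratio between these same arrays.

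The study asked how gene expression in hepatocytes depends on DRP1, the dynamin-related protein that divides mitochondria. One array held RNA of *Drp1*LiKO hepatocytes (*Alb-Cre* Tg/+, *Drp1*flox/flox), and the other held RNA of control hepatocytes from *Drp1*flox/flox sibling littermates, which the labels call wild type control. Both genotypes carried the floxed allele, the labels name C57BL/6 as the strain background of both, and neither culture received a treatment named in the labels. Cells were released from the liver with collagenase, seeded on collagen and harvested after 24 h. The albumin promoter restricts Cre largely to hepatocytes, so other liver cells in a culture would keep *Drp1*. The study's methods give an age and sex for purchased mice and do not tie them to the animals behind these cultures, whose number is not given in the sources used here.

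Each genotype had 1 array, so there was no replicate and no test, and no p-value is given. The arrays shared 1 slide, 1 dye and 1 scan. Feature Extraction, the scanner software, called 48.2% of 56605 probes on the control array and 52.1% on the *Drp1*LiKO array well above background. A signal below that call was raised to the lowest signal that passed it, 18.2 on the control array and 15.0 on the *Drp1*LiKO array, and the ratio of such a gene is a bound. The log2 ratio is *Drp1*LiKO minus control after each array was scaled to its 75th percentile. A gene is its brightest probe, and its noise interval holds 95% of the spread between spots of probes printed 10 times, which is technical error within an array and not the spread between cultures. A Z score of 2 in size, the threshold the study names, lay here at a log2 ratio of 1.30 or -1.31. The deleted gene, listed as *Dnm1l*, had a signal of 2602 on the control array and 1217 on the *Drp1*LiKO array on its brightest probe, a log2 ratio of -1.28. Its other probe was dim, with 22.8 and 21.0, and the position of either probe relative to the deleted exons was not analysed here.

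Vitamin A reaches cells as retinol. Retinol is oxidized to retinaldehyde and then, by aldehyde dehydrogenases of the ALDH1A family, to retinoic acid. Retinoic acid binds nuclear receptors that sit on DNA with RXR partners and switch on target genes, among them the genes of enzymes that remove retinoic acid or its precursor. The liver is the main store of vitamin A, held as retinyl esters in stellate cells, and hepatocytes secrete the carrier protein that takes retinol to other tissues.

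Retinoic acid receptors bind pairs of a hexamer in the same direction, commonly with 5 bases between them, an element called DR5. The hexamer was taken as AGGTCA by its usual form, and as close forms of it that are known from receptor sites, which were AGTTCA as the first of these, GGTTCA as the next, and finally GGGTCA as the last. In the RefSeq promoters of GRCm38.p6, from 250 bases before to 50 after each start, DR5 was searched on both strands with any mixture of these 4 hexamers. It was found in 32 of 32851 promoters (0.0974%). The 8 members matched 12 promoters, of which 2 held DR5, those of *Cyp26a1* and *Rarb*. Both genes are known as direct targets of the retinoic acid receptors, and the 100 bases before their starts are shown with DR5 in capitals, *Cyp26a1* at chr19:37697708-37697807 on the plus strand and *Rarb* at chr14:16575477-16575576 on the minus strand.
Cyp26a1: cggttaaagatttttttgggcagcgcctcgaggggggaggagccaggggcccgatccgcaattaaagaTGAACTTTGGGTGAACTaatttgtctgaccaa
Rarb: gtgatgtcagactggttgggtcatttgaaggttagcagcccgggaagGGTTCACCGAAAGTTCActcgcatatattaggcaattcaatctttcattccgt
The *Cyp26a1* element lay 32 to 16 bases before the start, with its hexamers on the opposite strand. The *Rarb* element lay 53 to 37 bases before the start, on the strand of the gene. Hexamers spaced by 2 bases (DR2, 0.268% of all promoters) or by 1 base (DR1, 0.222%) were in 0 of the 12 promoters of the members. Both DR5 elements consist of the close forms AGTTCA or GGTTCA and hold no AGGTCA, so the choice of hexamers decided that they were found. Their share of the members' promoters beside that of all promoters is therefore no test of enrichment. A match of letters is a description, and binding was not measured in these cells.

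Of the 8 members, 7 were well above background on both arrays by at least 1 probe, and *Lrat* was not on either. Between *Drp1*LiKO and control cells, 5 members were higher and 2 were lower. *Cyp26a1* passed the threshold upward, against 3.5% of the 20165 genes compared, and *Aldh1a2* passed it downward, against 2.81% of those genes. At 2-fold, 1 member was higher, against 5.32% of all genes, and 2 were lower, against 4.59%. The median log2 ratio of the 7 members was 0.31, and that of all genes compared was -0.05. Because the members were picked with these ratios known, no meaning was read from their share against that of all genes.

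**Figure D1:**
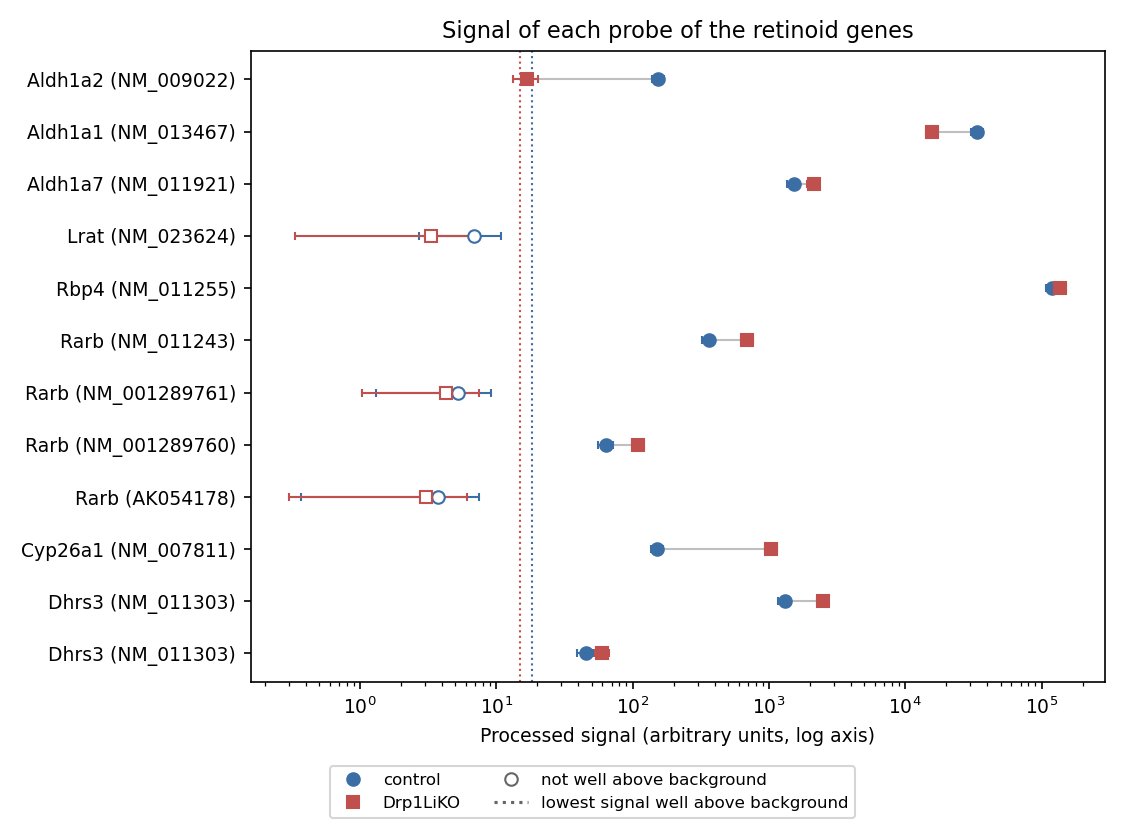
Processed signal (arbitrary units, log axis) of each of the 12 probes of the retinoid genes, 1 row per probe with its accession, on the control array (circles) and the *Drp1*LiKO array (squares). Bars are the error that Feature Extraction gives for the spot, shortened on the left where they would reach 0, open symbols are not well above background, and dotted lines mark the lowest signal well above background on each array. *Aldh1a2* lies far from background in control and beside it in *Drp1*LiKO cells, and *Cyp26a1* shows the widest gap in the other direction.

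Among the 3 members of the ALDH1A family, *Aldh1a2* was lower in *Drp1*LiKO cells, *Aldh1a1* was lower by less and fell short of the threshold, and *Aldh1a7* was slightly higher. Whether each of them forms retinoic acid in these cells was not measured. *Aldh1a2* (NM_009022), also called retinaldehyde dehydrogenase 2, is the main source of retinoic acid in the embryo and in adults is known from stromal, mesothelial and some dendritic cells. Its 1 probe lies on chromosome 9 of mm9 from 71143931 to 71143990 on the plus strand. The processed signal was 153 on the control array and 16.8 on the *Drp1*LiKO array, with a spot error of 15.8 and 3.56. Before background subtraction the spot read 231 over a local background of 60.0 on the control array and 84.5 over 57.0 on the *Drp1*LiKO array. The *Drp1*LiKO value was thus called well above background but lay close to the lowest signal so called on that array, 15.0. The log2 ratio was -3.37, or 10.4-fold lower, with a Z score of -5.16. The noise interval was -3.73 to -3.01, but the repeated probes behind it were brighter than this spot on the *Drp1*LiKO array, with a median signal of 37.0. From the spot errors of Feature Extraction, the interval was wider, -4.04 to -2.71. Of the 20165 genes compared, 57 (0.283%) had a lower ratio or bound, among them 6 of the 17735 genes measured on both arrays. With such a dim signal the size depended on the background correction, and the log2 ratio was -1.55 after normexp correction with an offset of 50, which draws dim ratios toward 0. It was -2.80 in the deposited normalized values, with the dim value raised to the detection limit.

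*Aldh1a1* (NM_013467), the form of the enzyme that hepatocytes are known to express, lies on chromosome 19 with its probe at 20717764 to 20717823 on the plus strand. Its signal was 33624 on the control array and 15734 on the *Drp1*LiKO array. The log2 ratio was -1.28, or 2.43-fold lower, with a noise interval of -1.40 to -1.16. On the *Drp1*LiKO array the repeated probes behind that interval were brighter than this spot, with a median signal of 42838. From the spot errors the interval was wider, -1.68 to -0.88. With a Z score of -1.95, *Aldh1a1* was just short of the threshold, and 2.95% of the genes compared had a lower ratio. It therefore passed under 5 of the 11 alternatives tried, normexp correction, both other filters on dim probes, a Z score from the median and median absolute deviation, and a plain 2-fold threshold.

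*Aldh1a7* (NM_011921), a close mouse paralog and neighbor of *Aldh1a1*, had its probe 49.8 kb away, at 20767553 to 20767612 on the minus strand. Its signal was 1513 on the control array and 2127 on the *Drp1*LiKO array, a log2 ratio of 0.31 with a noise interval of 0.12 to 0.49. Here too the repeated probes were brighter on the *Drp1*LiKO array, with a median signal of 6316. The neighbors thus lay on opposite sides of 0 by more than the noise between spots, whereas the interval from the spot errors, -0.09 to 0.71 for *Aldh1a7*, included 0. The 60-base probes of the 3 family members shared no run longer than 8 bases with each other, the longest being between *Aldh1a1* and *Aldh1a7*. That compares probes alone, and how well a probe matches the transcript of another family member was not analysed here.

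**Figure D2:**
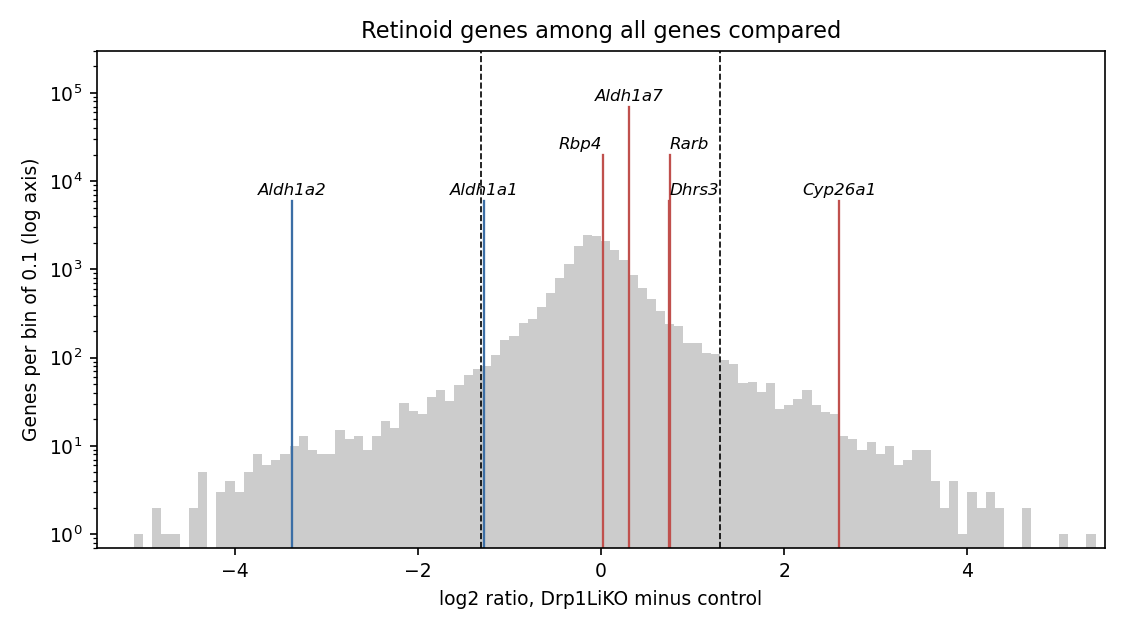
Number of genes (log axis) in each bin of 0.1 of the log2 ratio of *Drp1*LiKO minus control, over the 20165 genes compared, with the 7 detected retinoid genes as vertical lines of arbitrary height, blue below 0 and red above. Dashed lines mark a Z score of 2 in size, beyond which *Aldh1a2* at -3.37 and *Cyp26a1* at 2.60 lie, with *Aldh1a1* at -1.28 just inside.

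For storage, *Lrat* (NM_023624), lecithin retinol acyltransferase, makes the retinyl esters of stellate cells. Its probe, on chromosome 3 of mm9 from 82696805 to 82696864 on the minus strand, had a signal of 6.82 on the control array and 3.33 on the *Drp1*LiKO array. Neither value was well above background, so no ratio is given. The raw spots read 76.2 over a local background of 60.0 on the control array and 65.9 over 58.0 on the *Drp1*LiKO array.

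For transport, *Rbp4* (NM_011255), the retinol carrier that hepatocytes secrete into blood, has its probe on chromosome 19 from 38191129 to 38191188 on the minus strand. Its signal was 119220 on the control array and 136923 on the *Drp1*LiKO array. After scaling the log2 ratio was 0.02, with a noise interval of -0.08 to 0.11. Across the ways of processing it ranged from 0.02 to 0.15, and no difference beyond the noise was detectable with percentile scaling.

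Among the receptors, *Rarb*, retinoic acid receptor beta, is both a receptor and one of its own targets, through the DR5 element shown in its promoter. Of its 4 probes on chromosome 14, 2 were well above background on both arrays and both read higher in *Drp1*LiKO cells. The brighter (NM_011243, from 17263511 to 17263570) had a signal of 360 on the control array and 689 on the *Drp1*LiKO array. Its log2 ratio was 0.75, or 1.69-fold higher, with a noise interval of 0.48 to 1.03. The other (NM_001289760, from 17263889 to 17263947) had 63.8 and 110, a log2 ratio of 0.60 with a noise interval of 0.22 to 0.99. Neither passed the threshold, with Z scores of 1.17 and 0.93. The remaining probes, NM_001289761 at 17651424 to 17651483 and AK054178 at 17380078 to 17380137, read between 3.04 and 5.25 and were not well above background on either array.

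Of the 2 members that remove retinoic acid or its precursor, *Cyp26a1* was higher in *Drp1*LiKO cells past the threshold and *Dhrs3* did not reach it. *Cyp26a1* (NM_007811), the cytochrome P450 that degrades retinoic acid and is induced by it, has its probe on chromosome 19 from 37775566 to 37775625 on the plus strand, 416 kb from that of *Rbp4*. Its signal was 152 on the control array and 1042 on the *Drp1*LiKO array, with a spot error of 15.7 and 104. The log2 ratio was 2.60, or 6.05-fold higher, with a noise interval of 2.32 to 2.88 and a Z score of 4.00. Of all genes compared, 0.59% had a higher ratio. It ranged from 2.21 to 2.79 across the ways of processing and passed the threshold under each.

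*Dhrs3* (NM_011303), a dehydrogenase that returns retinaldehyde to retinol and is also induced by retinoic acid, had 2 probes on chromosome 4. At 144517485 to 144517544 the signal was 1304 on the control array and 2483 on the *Drp1*LiKO array, a log2 ratio of 0.75, or 1.68-fold higher, with a noise interval of 0.55 to 0.94. At 144483279 to 144483338 it was 45.2 and 59.6, a log2 ratio of 0.22 with a noise interval of -0.17 to 0.60, so the dimmer probe showed no difference beyond the noise. The probe that stood for the gene, with a Z score of 1.16, did not reach the threshold.

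**Figure D3:**
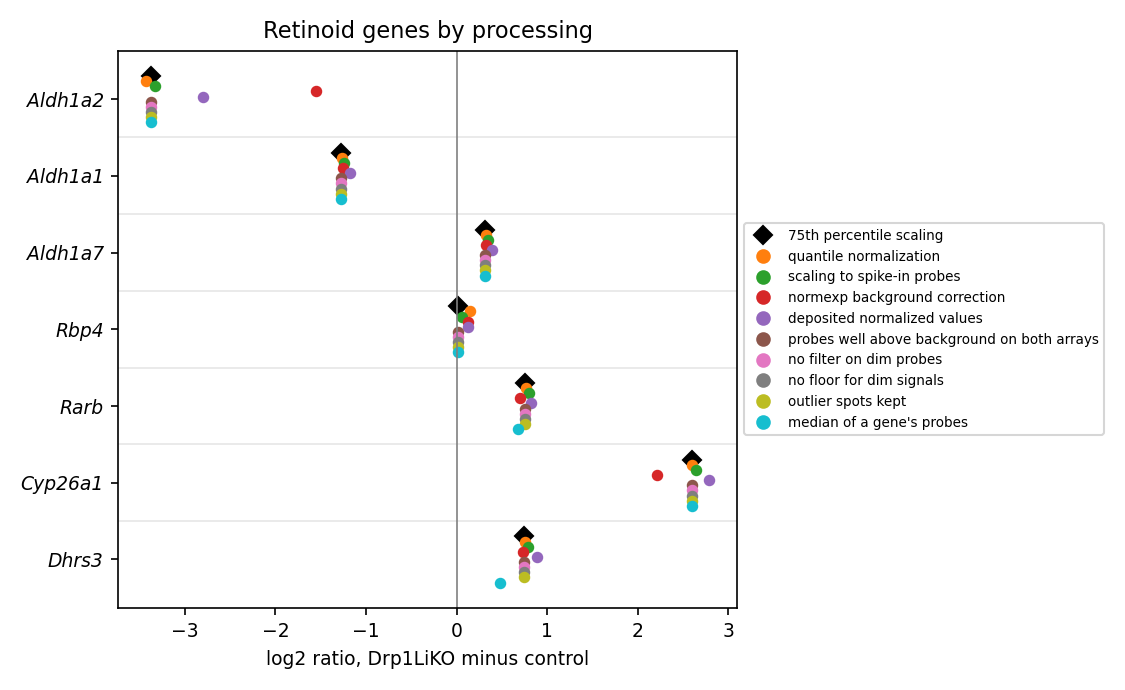
Log2 ratio of *Drp1*LiKO minus control for the 7 detected retinoid genes (rows) under 75th percentile scaling (black diamonds) and 9 alternatives that change the values or the probe used (colored circles). Each gene keeps its side of 0, and *Aldh1a2* moves most, from -3.37 to -1.55 under normexp correction.

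A list of 83 other genes of the retinoid pathway gave the surroundings. Of these 69 were detected, and 60 were measured on both arrays, 32 higher and 28 lower. A further 7 were detected in *Drp1*LiKO cells alone and 2 in control cells alone. The direction of these was fixed by the filter, or, for *Lipe*, 9.29 in control and 17.8 in *Drp1*LiKO cells, not settled by its bound. Counted with them, 38 were higher and 30 lower. The median log2 ratio of the 69 was 0.11, and 0.03 over the 60 genes measured on both arrays. Past the threshold, 5 were higher and 1 was lower, and without bounds 4 and 0. Of all genes compared, 3.5% passed it upward and 2.81% downward, and 44.5% had a log2 ratio above 0.

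The other genes that the list placed under retinoic acid synthesis centered on 0. The direction in which each enzyme works in these cells was not measured. Of 26 such genes 22 were detected, 0 passed the threshold in either direction, and the median log2 ratio was 0.01. The highest ratio measured on both arrays was that of *Rdh7*, a retinol dehydrogenase, with a signal of 558 on the control array and 1353 on the *Drp1*LiKO array and a log2 ratio of 1.09. The lowest was that of *Rdh12*, another retinol dehydrogenase, with 2358 and 1550 and a log2 ratio of -0.79. By the deposited table *Rdh7* had 0.52, and the lowest of the group was *Dhrs4*, a short-chain dehydrogenase, with -2.33 against -0.42 from the scanner signals. *Adh5*, the alcohol dehydrogenase with the brightest probe of the group, had a log2 ratio of -0.01. None of these passed the threshold in the scanner signals.

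Among 17 other aldehyde dehydrogenases, all detected, the median log2 ratio was 0.14. Of these, 15 were measured on both arrays, 9 higher and 6 lower, with a median of 0.09. A further 2 were detected in *Drp1*LiKO cells alone, so that their direction was fixed by the filter, and with them 11 were higher. *Aldh1b1*, a mitochondrial aldehyde dehydrogenase, was the 1 gene past the threshold, with 161 on the control array and 485 on the *Drp1*LiKO array and a log2 ratio of 1.41. Its ratio in the deposited normalized values was 0.48. *Aldh8a1*, with 40.4 and 28.6, had the lowest log2 ratio of this group, -0.68. By the deposited table the lowest was *Aldh2*, with -1.14 against 0.25 from the scanner signals.

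Genes of retinyl ester storage and hydrolysis had a median log2 ratio of 0.81 over the 12 of 13 detected, and 2 were past the threshold, both higher. *Lpl*, lipoprotein lipase, had 126 on the control array and 535 on the *Drp1*LiKO array, a log2 ratio of 1.91, and its probes ranged from 0.57 to 1.91. *Ces1d*, a carboxylesterase, had 265 and 762, a log2 ratio of 1.34. Most enzymes of this group act on triglycerides as well as on retinyl esters. *Dgat2*, which esterifies diglycerides and was the gene of the brightest probe, had 5793 and 14064, 2.14-fold higher after scaling. *Mgll*, monoglyceride lipase, had the lowest log2 ratio, -0.91.

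Among 13 genes of transport and binding, 11 were detected and their median log2 ratio was -0.18. Both genes past the threshold rest on bounds. *Cd36*, a scavenger receptor for lipids, had 12.9 in control, not well above background, and 142 in *Drp1*LiKO cells, at least 6.85-fold higher. *Lrp2*, megalin, an endocytic receptor that takes up the retinol carrier in kidney, had 49.1 on the control array and 8.44 on the *Drp1*LiKO array, not well above background, at least 3.72-fold lower. *Stra6*, the membrane receptor for RBP4, had a log2 ratio of 0.49 and *Rbp7*, a cellular retinol-binding protein, one of -1.11, without passing the threshold. In the deposited normalized values these ratios were -0.08 for *Stra6* and -0.58 for *Rbp7*. *Fabp5*, a lipid carrier that can pass retinoic acid to other nuclear receptors, had -0.23 on the brightest probe of the group.

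Of 6 other clearance genes 3 were detected, and 2 were past the threshold, both higher. *Cyp26b1*, the paralog of *Cyp26a1* that also degrades retinoic acid, had 45.6 on the control array and 340 on the *Drp1*LiKO array, a log2 ratio of 2.71. *Cyp3a11*, a broad drug-metabolizing cytochrome P450 of hepatocytes, had 736 and 3408, a log2 ratio of 2.03. *Cyp2s1*, another cytochrome P450 that can act on retinoic acid, had 24.2 in control and 13.4 in *Drp1*LiKO cells, not well above background, at least 1.83-fold lower without passing the threshold.

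Other receptors and their coregulators were all detected, 13 of 13, and their median log2 ratio was 0.00. Of these 0 passed the threshold. *Rxra*, the main RXR partner in liver, had the brightest probe and a log2 ratio of 0.27. The highest ratio of the group was 0.90, for *Nr2f2*, the orphan receptor COUP-TFII, whose ratio in the deposited normalized values was 0.02.

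Of 12 other known targets of retinoic acid 8 were detected, and their median log2 ratio was 0.35. Of these, 7 were measured on both arrays, 4 higher and 3 lower, with a median of 0.32. The remaining 1 was detected in *Drp1*LiKO cells alone, so that its direction was fixed by the filter, and with it 5 were higher. Again 0 passed the threshold. *Meis2*, a homeobox gene, had the highest ratio measured on both arrays, 0.85, with 110 on the control array and 224 on the *Drp1*LiKO array. *Tgm2*, transglutaminase 2, on the brightest probe of the group, had 0.38. *Cebpe*, a myeloid transcription factor, had the lowest, -0.69.

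**Figure D4:**
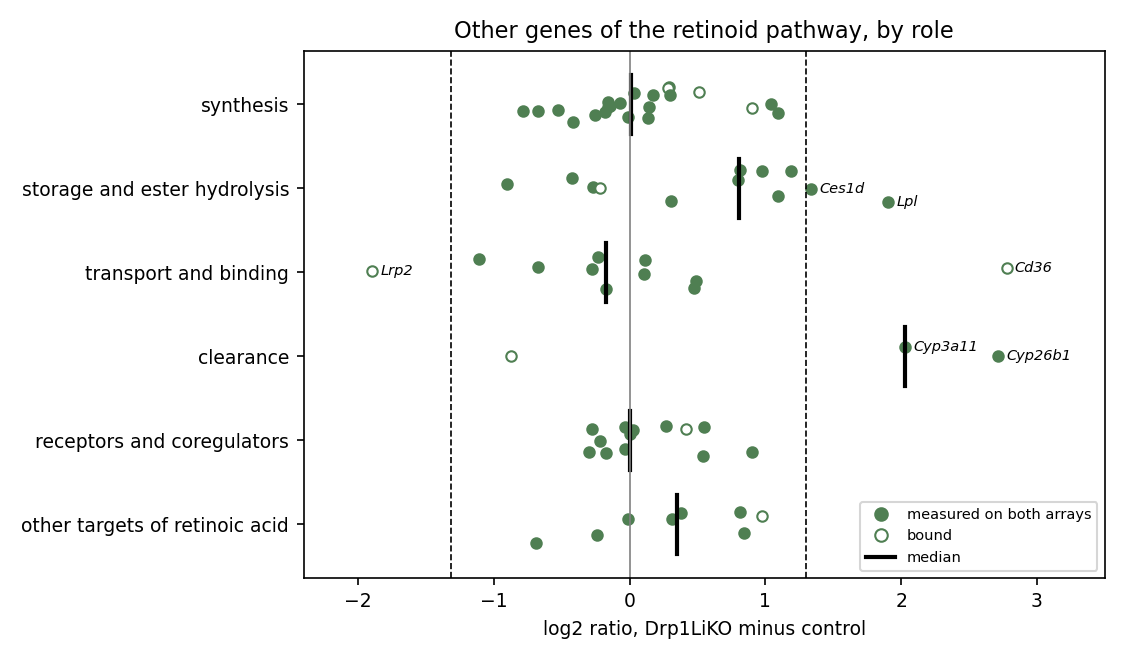
Log2 ratio of *Drp1*LiKO minus control for each detected gene of the list of other retinoid pathway genes, in rows by role, with points spread vertically at random for sight. Filled points were measured on both arrays, open points are bounds, black bars are medians over both, and dashed lines mark a Z score of 2 in size, beyond which the 6 named genes lie.

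Genes of other liver cells differed between the cultures too. In such bulk RNA, fewer cells of a type cannot be told apart from less RNA per cell. Hepatocyte markers were all detected, 12 of 12, and their median log2 ratio was -0.04, with 0 past the threshold. *Serpina1a*, on the brightest probe, had 338486 on the control array and 339334 on the *Drp1*LiKO array. The summed signal of the detected genes of the list was 828404 and 865186.

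*Aldh1a2* and *Lrat* are known from cells other than hepatocytes, so the markers of those cells stand beside them. Of 16 stellate cell markers 7 were measured on both arrays, 6 higher and 1 lower, and their median log2 ratio was 0.97. Of these 7, *Dcn*, decorin, passed the threshold, with 203 on the control array and 3848 on the *Drp1*LiKO array. A further 6 were detected in *Drp1*LiKO cells alone, so that their direction was fixed by the filter, or, for *Des*, not settled. The summed signal of all 16 was 29191 and 36758, most of it from 1 probe. That probe was *Acta2*, smooth muscle actin, with 21437 and 24640 and a log2 ratio of 0.02. The detected probes of *Acta2* ranged from 0.02 to 2.20, so its brightest probe had the lowest ratio. *Ngfr*, *Hand2* and *Gfap* were not well above background on either array. Of 7 mesothelial cell markers with a probe, 2 were detected and neither passed the threshold. *Msln*, mesothelin, had 52.5 on the control array and 143 on the *Drp1*LiKO array, a log2 ratio of 1.26, while *Upk3b*, *Upk1b*, *Lrrn4*, *Bnc1* and *Gpm6a* were not well above background on either array. Of 8 dendritic cell markers, *Itgae* and *Batf3* were detected, in *Drp1*LiKO cells and not in control, with the brightest control signal at 15.9 for *Itgae*, and *Xcr1*, *Clec9a*, *Flt3*, *Zbtb46*, *Ccr7* and *Itgax* were detected on neither array. Over all markers with a probe, detected or not, the summed signal was 92.0 on the control array and 186 on the *Drp1*LiKO array for mesothelial cells, and 68.8 and 117 for dendritic cells. Of both lists, *Msln* was the 1 marker measured on both arrays, and most others lay near background. The part of these cells in the lower *Aldh1a2* signal was not tested.

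Of 10 Kupffer cell and macrophage markers 7 were measured on both arrays, all of them higher and 6 past the threshold, with a median of 2.63 on the log2 scale. The summed signal of the 10 was 3741 on the control array and 15106 on the *Drp1*LiKO array. *Cd68* had the brightest probe, with 2346 and 9593, and *Timd4* was not detected. Of 11 endothelial markers 9 were measured on both arrays, each higher and 4 past the threshold, with a median of 1.26, and the summed signal of the 11 was 4778 and 9983. *Egfl7*, on their brightest probe, had 3773 and 6941. Cholangiocyte markers had a median of -0.33 over the 4 of 7 measured on both arrays, 0 past the threshold, with *Spp1* brightest at 24719 and 20346, a summed signal of 29687 and 25178 over the 7, and *Epcam* and *Cftr* not detected. The part of these cells in the higher *Cyp26a1* and *Cyp26b1* signals was not tested.

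**Figure D5:**
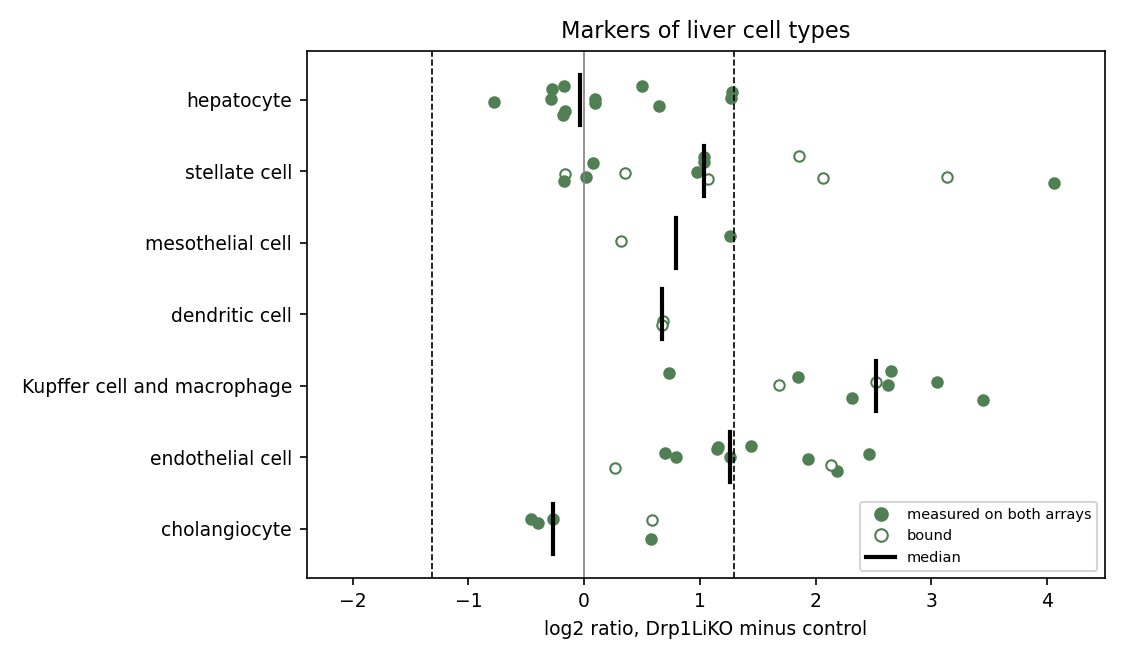
Log2 ratio of *Drp1*LiKO minus control for each detected marker of 7 liver cell types (rows), with points spread vertically at random for sight. Filled points were measured on both arrays, open points are bounds, black bars are medians over both kinds of point (2.52 for Kupffer cells and macrophages, -0.04 for hepatocytes), and dashed lines mark a Z score of 2 in size.

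By the size of the ratio alone, the genes measured on both arrays nearest to *Aldh1a2* were *Gm12253*, with a log2 ratio of -3.37, *Strn*, with -3.32, and the transcript listed as ENSMUST00000184915, with -3.24. Likeness here is the difference of 1 log2 ratio over 2 arrays. *Strn*, which encodes striatin, had a signal of 312 on the control array and 35.4 on the *Drp1*LiKO array. *Gm12253* had 244 and 26.9, and like *Aldh1a2* each of the 3 approached background in *Drp1*LiKO cells.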

How the data were processed

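RNA was measured on 2 Agilent mouse arrays, 1 per genotype. The authors deposited the scanner files, with raw and background-corrected (processed) intensity per spot, and a series table of intensities that they had normalized, by a method not given in the sources used here. The submitters' processing notes name Feature Extraction 9.5.1.1, whereas the file headers give 10.7.1.1. Control spots and outlier spots were dropped, the log2 values of a probe's spots were averaged, and each array was centered on its 75th percentile, 313 for control and 356 for *Drp1*LiKO. Probes called well above background on 1 array or both, 30275 in all, were compared, and the Z score was taken over them. No spot was saturated. Over probes well above background, the deposited values and the array had a rank correlation of 0.988 for *Drp1*LiKO and 1.00 for control, and the deposited table served as an alternative, with 1 detection limit of 23.8. The steps were tested on simulated data.

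The members and gene lists were chosen with earlier results of these data known. Named were all members, *Dnm1l*, pathway genes and aldehyde dehydrogenases past the threshold with the brightest gene of each role and the largest rise and fall, the brightest and the undetected markers of each list, and the 3 genes nearest to *Aldh1a2*. *Lipe*, *Dhrs4*, *Aldh2*, *Cyp2s1*, *Nrip1*, *Dcn*, *Des*, *Itgae* and *Batf3* were named after their values were seen. The value of 1 gene that this rule names is not reported here. Of 37074 gene names on the array, 24787 were found in RefSeq's table for GRCm38.p6. Probe positions are those of the files, in mm9. The 11 alternatives were quantile normalization, spike-in scaling, normexp with an offset of 50, the deposited values, 2 other filters, no floor, outlier spots kept, median over probes per gene, a robust Z score and a 2-fold threshold. Software was R 4.3.3 (limma 3.58.1) and Python 3.11.15 (matplotlib 3.10.9, numpy 2.4.6, pandas 2.3.3, scipy 1.17.1).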

Additional observations from a re-analysis of the deposited data

Results flagged for a closer look

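*Lrat* gave a signal in data outside the comparison. In the deposited normalized values it stood at 7.80 in control and 137 (137.2) in *Drp1*LiKO cells, above the detection limit of 23.8, whereas its spots on the arrays were not well above background. Of 26325 probes well above background on neither array, 314 (1.19%) were likewise over 2-fold higher in the deposited *Drp1*LiKO column and above that limit. The scanner signals of *Lrat* were therefore used, and the cause of the mismatch was not tested.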

How the results depend on the processing

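No detected member changed sign under any of the 11 alternatives. *Cyp26a1* and *Aldh1a2* passed the threshold under each of them. Members past it were 1 higher and 1 lower, and became 3 higher with a Z score from the median and median absolute deviation, which added *Rarb* and *Dhrs3*, and 2 lower with *Aldh1a1* under that score, normexp correction, probes well above background on both arrays, no filter and a 2-fold threshold. Other retinoid genes past it were 5 higher and 1 lower, and became 9 and 0 under normexp correction, 17 and 5 with the robust Z score and 9 and 2 at 2-fold, with 14 higher without a filter and 0 lower with probes well above background on both arrays. The median log2 ratio of these genes turned from 0.11 to -0.031 without a filter, which adds genes at the floor of both arrays and moved the median of all genes from -0.05 to -0.47 and the share higher among genes past the threshold from 55.5% to 69.4%. All genes past it were 705 higher and 566 lower, against 1355 higher without a filter, 1722 and 1443 with the robust Z score and 1073 and 925 at 2-fold.

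With 1 array per genotype leaving out a replicate was not possible. No paired analysis was possible because each genotype had 1 array. Spot noise rises toward background, which limits *Aldh1a2* in *Drp1*LiKO cells and hides *Lrat*.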

Other observations

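Of 29 other genes with DR5 in a RefSeq promoter, 3 were detected and 0 passed the threshold. *Blvrb*, biliverdin reductase B, had a log2 ratio of 0.19, and *Tnfsf13b* and *Pcsk2os2* had bounds of 0.34 and -0.05.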
